A study of Oryza sativa with 6 samples.

Results

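Seedlings treated with the synthetic cytokinin 6-benzylaminopurine (BAP) were set directly against seedlings treated with the auxin indole-3-acetic acid (IAA), over all target probe sets of the Affymetrix rice array. The 2 BAP arrays and 2 IAA arrays were chosen by their titles, and they make up 4 of the 6 arrays of the series. All plants were 7-day-old light-grown whole seedlings of the indica rice variety IR64, raised at 28 °C with 14 h of light and 10 h of dark. BAP seedlings stood in a 50 µM BAP solution and IAA seedlings in a 50 µM IAA solution. Control seedlings were mock-treated with 0.1% dimethyl sulfoxide, and the labels do not say whether the hormone solutions held that solvent. In each group material taken after 1 h and after 3 h was pooled in equal amount, so an array reports an average over both times. The 2 control arrays serve here to place each hormone's level. The series design calls the arrays of a group biological replicates, and with 2 arrays a group their number limits the precision of every value below.

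Cytokinins are read by membrane histidine kinases that pass a phosphate through phosphotransfer proteins to type-B response regulators, which are transcription factors. Their early targets include the type-A response regulators, which dampen the same pathway, and the cytokinin dehydrogenases, which break the hormone down. Auxin is read by an F-box receptor that marks Aux/IAA repressors for destruction and so frees the auxin response factors. Many Aux/IAA genes and GH3 genes are themselves early auxin targets, and some of the GH3 enzymes join auxin to amino acids. In rice, auxin promotes crown roots that emerge from the stem base, and the homeobox gene WOX11 takes part in that step, where cytokinin and auxin signals meet.

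Both sets of early targets separated the hormones. Among genes with a symbol, the 15 with the largest differences higher with BAP included type-A response regulators, cytokinin dehydrogenases, a phytosulfokine precursor, an expansin and a cell-wall invertase. The 15 with the largest differences lower with BAP included Aux/IAA repressors, GH3 enzymes, WOX homeobox genes and a cytochrome P450 of the family that inactivates brassinosteroids. Some genes without a symbol differed by more than many of these. Of 34316 target probe sets tested, 769 (2.24%) passed an adjusted p of 0.05 in limma, 381 (1.11%) of them higher with BAP and 388 (1.13%) lower with BAP. In all 769 the arrays of the 2 hormones did not overlap, which passing the test largely entails with 2 arrays a group, so it is no separate support. Over all tested probe sets both BAP arrays lay above both IAA arrays in 19.7% and below them in 19.5%. At least 2-fold differences were seen in 191 of the higher probe sets (0.557% of those tested) and in 212 of the lower (0.618%). Differences of at least 4-fold were seen in 21 higher and 48 lower probe sets. All log2 differences below are BAP minus IAA on the log2(intensity + 16) scale, which understates the change of dim genes, and each gene's intensities are normalized values with the 16 taken off again. Counted by gene, with the brightest probe set standing for it, 244 of 16464 genes (1.48%) were higher and 237 (1.44%) were lower, with a median difference of 0.00. Without BAP replicate 1 the total was 322, without BAP replicate 2 it was 348, without IAA replicate 1 it was 310 and without IAA replicate 2 it was 430. Higher calls made up 49.5% of the total, and 64.2% when the arrays were not rescaled to each other.

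**Figure D1:**
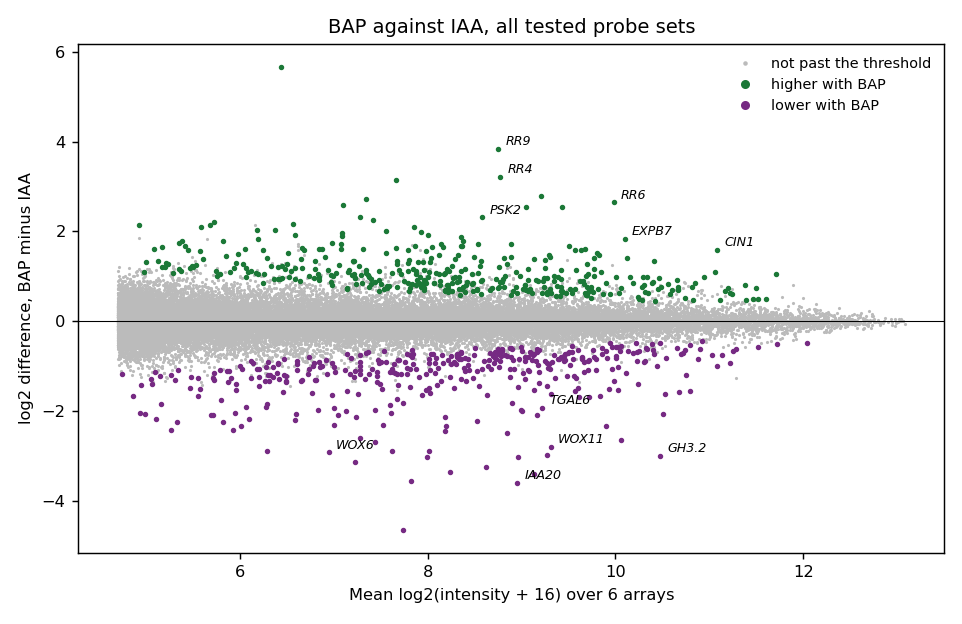
The log2 difference, BAP minus IAA, of each of the 34316 tested probe sets (vertical axis) is plotted against its mean log2(intensity + 16) over the 6 arrays (horizontal axis). Green points are the 381 probe sets higher with BAP, purple points the 388 lower with BAP, and the highest green point, at 5.66, is a probe set that the annotation used here does not name.

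The arrays of a hormone were more like each other than like those of the other hormone. Over the tested probe sets Pearson's r was 0.983 between the BAP arrays, 0.983 between the IAA arrays, and 0.975 to 0.977 between a BAP and an IAA array. BAP replicate 1 was no closer to BAP replicate 2 than to the control arrays, with r of 0.985 and 0.984 to control. BAP replicate 2 had r of 0.981 to each control array. One pair of fluidics modules processed the BAP and the IAA arrays, on different days, with the control arrays processed on the day of the IAA arrays, so run day and hormone cannot be told apart. The actin 3′ to 5′ signal ratio, a sign of RNA length, was 5.01 and 3.77 in the BAP arrays, 3.60 and 3.72 in the IAA arrays and 4.53 and 4.55 in the control arrays. The cyclophilin ratio was 2.14 and 1.96 with BAP, 1.75 and 1.66 with IAA and 1.91 and 1.96 in control. Both ratios were higher in each BAP array than in each IAA array, and their part in the differences was not tested. Of 7 photosystem and light-harvesting genes, which mark the shoot, none passed the test, and their summed intensity was 31515 and 30715 with BAP, 32039 and 32873 with IAA and 31401 and 31150 in control. A list of 22 genes taken for the root held Casparian strip genes, Casparian-strip-like (CASPL) genes and root-preferential genes. How far each is confined to roots was not tested. None of the 22 passed, with sums of 12737 and 12343 with BAP, 10621 and 12286 with IAA and 12383 and 12835 in control. Those 22 do not include Lsi2, a silicon carrier gene of roots described below, which was called lower with BAP (−0.98). Fewer cells of a type and less RNA per cell cannot be told apart in whole seedlings.

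Every measured gene listed by its symbol as a type-A response regulator was higher with BAP. The 6 of 6 calls stand against 1.48% of all genes, and the median difference of the list was 2.62. The largest difference was that of RR9, with 2055 and 1909 in the BAP arrays, 116 and 132 in the IAA arrays and 237 and 306 in the control arrays. The BAP and IAA arrays did not overlap, the IAA arrays lay below both control arrays, and the difference of 3.84 (SE 0.15, limma adjusted p = 1.33e-05) corresponds to 14.3-fold. RR4 had 1701 and 1493 with BAP, 162 and 151 with IAA and 266 and 308 in control, a difference of 3.22 (SE 0.13, limma adjusted p = 1.33e-05). RR9 and RR4 thus had the same order of groups, with BAP above control and control above IAA in every array. RR6 and RR2, given next, shared that order, with control closer to IAA. RR6 was the brightest member, with 3309 and 3117 in BAP arrays, 506 and 492 in IAA arrays and 559 and 659 in control arrays, and it differed by 2.65 (SE 0.11).

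In RR1, RR2 and RR5, as in RR6, the control lay close to the IAA level. RR1 gave 451 and 468 with BAP, 79.0 and 49.7 with IAA and 59.95 and 46.2 in control, so its IAA and control arrays overlapped. RR2 gave 400.0 and 428 with BAP, 73.6 and 67.1 with IAA and 81.2 and 88.1 in control. Their differences were 2.59 (SE 0.20) and 2.32 (SE 0.15). RR5 was dim, with 74.4 and 101 in the BAP arrays, 6.47 and 23.3 in the IAA arrays and 1.85 and 15.3 in the control arrays. Its difference of 1.79 (SE 0.35, limma adjusted p = 0.0351) lost the call without IAA replicate 1 (adjusted p = 0.18), without BAP replicate 1 (0.12) and without BAP replicate 2 (0.18). Relative to control, RR9 was 2.81 higher on the log2 scale with BAP and −1.03 with IAA, while RR1 was 2.79 higher with BAP and 0.20 with IAA.

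The parts of the pathway upstream of the type-A genes changed little or in both directions. None of 6 receptor and phosphotransfer genes passed, and their median difference was 0.00. The receptor gene HK4 had 442 and 566 with BAP, 334 and 224 with IAA and 239 and 272 in control (difference 0.83, limma adjusted p = 0.0746). HK3, another receptor, had 597 and 676 with BAP, 803 and 1056 with IAA and 835 and 949 in control (−0.52, limma adjusted p = 0.14). BAP arrays lay above IAA arrays for HK4 and below them for HK3. The phosphotransfer gene AHP2, at 2606 and 2389 with BAP and 2409 and 2551 with IAA, differed by 0.01. Of 4 type-B regulators, ORR4 was higher (697 and 744 with BAP against 460 and 464 with IAA, difference 0.62, SE 0.11) and ORR1 was lower (942 and 997 with BAP against 1405 and 1333 with IAA, difference −0.49, SE 0.10). In ORR4 and in ORR1 the control arrays, at 575 and 596 and at 1213 and 1267, lay between the hormones. Both calls were lost whichever of the 6 arrays was left out, with adjusted p up to 0.11 for ORR4 and 0.18 for ORR1.

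Cytokinin breakdown and activation genes separated the hormones through single members. Of 4 cytokinin dehydrogenase genes 2 were higher with BAP, none was lower, and the median difference was 1.28. CKX3 had 147 and 146 with BAP, 29.3 and 18.7 with IAA and 37.9 and 49.9 in control (2.03, SE 0.20, limma adjusted p = 0.00157). CKX5 had 486 and 420 with BAP, 133 and 75.8 with IAA and 104 and 108 in control (2.00, SE 0.22, limma adjusted p = 0.00237). For both genes the BAP arrays stood apart from the IAA arrays, and for CKX5 the control arrays lay inside the IAA range. CKX4 behaved otherwise: it had 477 and 527 with BAP and 426 and 370 with IAA, against 156 and 193 in control, so both hormones lay above control and the difference of 0.33 between them did not pass (limma adjusted p = 0.409). CKX11 had 754 and 1011 with BAP and 569 and 598 with IAA (0.57, limma adjusted p = 0.125).

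LOG enzymes release active cytokinin from its nucleotide, and 2 of the 8 LOG genes were called, in opposite directions. LOGL3 had 318 and 312 with BAP, 1755 and 1100 with IAA and 331 and 455 in control, a difference of −2.09 (SE 0.22, limma adjusted p = 0.00196). LOGL6 had 53.4 and 35.2 with BAP, 3.11 and 2.71 with IAA and 28.6 and 22.1 in control, a difference of 1.66 (SE 0.25, limma adjusted p = 0.0106). BAP and control lay close together for LOGL3, with IAA above both, while for LOGL6 the IAA arrays lay near the floor of the scale, below both other groups. The LOGL6 call was lost without BAP replicate 1 (adjusted p = 0.083), without IAA replicate 1 (0.058) and without IAA replicate 2 (0.053). The other LOG genes did not pass, and the list's median was −0.52: LOGL5 had 270 and 202 with BAP against 358 and 400.5 with IAA, and LOGL10 had 228 and 255 with BAP against 422 and 332 with IAA.

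**Figure D2:**
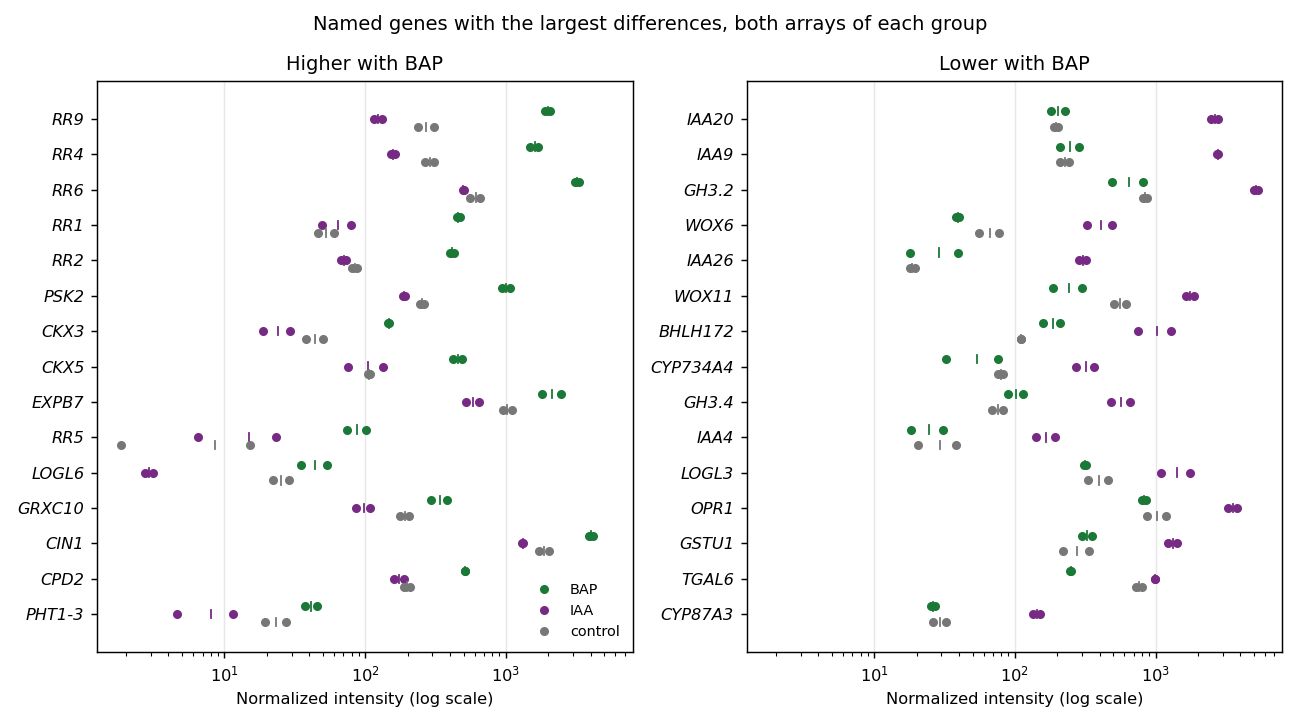
Normalized intensity (log scale) of the 15 named genes with the largest differences in each direction, with 1 point an array and a tick at the group mean, in green for BAP, purple for IAA and grey for control. On the left the BAP points lie to the right of the IAA points for every gene, and on the right the reverse holds. Control points sit near the BAP points for IAA20 and IAA9, near the IAA points for RR1 and TGAL6, and between them for RR9, EXPB7 and WOX11.

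Aux/IAA genes, the repressors of auxin signalling, made up the largest group of called members. Of 25 measured, 12 were lower with BAP than with IAA and 1 was higher, against 1.44% and 1.48% of all genes, and their median difference was −0.55. IAA20 had 225 and 182 with BAP, 2485 and 2763 with IAA and 203 and 189 in control, a difference of −3.59 (SE 0.14, limma adjusted p = 1.33e-05). IAA9 had 209 and 287 with BAP, 2739 and 2778 with IAA and 243 and 210 in control, a difference of −3.41 (SE 0.16, limma adjusted p = 1.7e-05). In both genes the BAP and control arrays overlapped and the IAA arrays lay far above. IAA26 was dim without auxin, with 17.9 and 39.8 under BAP, 286 and 322 under IAA and 19.5 and 17.8 in control, and it differed by −2.88 (SE 0.24). IAA4, at 30.8 and 18.2 with BAP and 191 and 141 with IAA, had 3 probe sets, all called, with differences of −2.18, −2.08 and −2.05.

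Other Aux/IAA members differed by less at much higher levels. IAA1 had 668 and 691 with BAP, 1940 and 2005 with IAA and 608 and 709 in control (−1.52, SE 0.11, limma adjusted p = 0.000296), although a second probe set of the gene gave −0.54 (adjusted p = 0.434). IAA13, among the brightest, had 3735 and 3898 with BAP, 5346 and 5384 with IAA and 3483 and 3720 in control (−0.49, SE 0.08). IAA21 was lower with BAP as well, but there the control arrays, at 2972 and 2744, lay between BAP (2473 and 2374) and IAA (3426 and 3775). The remaining lower members were IAA24 (−1.65), IAA12 (−1.06), IAA10 (−1.04), IAA15 (−0.94) and IAA30 (−0.43), which with IAA13 and IAA21 were named after their values were seen. The IAA30 call was lost whichever array was left out, that of IAA13 without BAP replicate 1 or either IAA array, and that of IAA21 without IAA replicate 2 or either BAP array. The very bright IAA3 and IAA17 differed by −0.03 and −0.06 and did not pass. IAA14 had 115 and 94.7 with BAP against 363 and 148 with IAA, a spread between the IAA arrays that left it uncalled (−1.05, limma adjusted p = 0.205).

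IAA7 stood alone in the family as higher with BAP, at 226 and 197 against 130.2 and 111 with IAA. Its control arrays, at 213 and 199, lay within the BAP range, so the IAA arrays were the ones that stood apart. The difference of 0.74 (SE 0.15, limma adjusted p = 0.0433) lost its call whichever of the 6 arrays was left out, with adjusted p of 0.087 to 0.17. The gene was named after its values were seen.

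Several genes for enzymes that take active auxin out of use were called lower with BAP. Of 9 GH3 genes, listed by symbol whatever their substrate, 4 were lower and none was higher, with a median of −0.35. GH3.2 had 810 and 492 with BAP, 4988 and 5353 with IAA and 813 and 864 in control (−3.001, SE 0.19, limma adjusted p = 0.000129). GH3.4 had 89.2 and 114 with BAP, 657 and 478 with IAA and 82.5 and 69.1 in control (−2.30, SE 0.19). GH3-8, known in rice to conjugate auxin to aspartate, had 269 and 321 with BAP, 838 and 809 with IAA and 210 and 163 in control (−1.44, SE 0.15). GH3-8 thus lay above control with both hormones, by 0.62 on the log2 scale with BAP and by 2.06 with IAA, while GH3.1 lay below control with BAP, at 35.1 and 23.6, against 177 and 121 with IAA and 51.6 and 46.4 in control (−1.85, SE 0.22). All 4 calls held with each array left out. DAO, a dioxygenase that oxidises auxin, had 1129 and 1360 with BAP, 4043 and 3366 with IAA and 1119 and 1239 in control (−1.56, SE 0.13, limma adjusted p = 0.000529).

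Auxin response factors and transport genes showed smaller differences. Of 16 response factor genes 4 were lower with BAP and none higher, and the median was −0.17. ARF10 had 110 and 100.2 with BAP, 340 and 315 with IAA and 126 and 139 in control (−1.51, SE 0.14, limma adjusted p = 0.00118). Its BAP arrays lay just below the control arrays and its IAA arrays well above. ARF23 (−0.72), ARF15 (−0.71) and ARF12 (−0.56) differed less, and the count of lower genes was 1 without BAP replicate 1, without BAP replicate 2 and without IAA replicate 1, and 2 without control replicate 2. The efflux carrier gene PIN3A had 160.5 and 171 with BAP, 294 and 278 with IAA and 208 and 202 in control (−0.73, SE 0.13, limma adjusted p = 0.0258). Its control lay between the hormones, and the call was lost whichever array was left out. The kinase gene PID, whose product is known in Arabidopsis to phosphorylate PIN carriers, had 164 and 179 with BAP, 563 and 422 with IAA and 205 and 199 in control (−1.42, SE 0.16), and was named after its values were seen.

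WOX homeobox genes were lower with BAP in 3 of the 6 members measured in the LBD and WOX list, and none was higher. WOX11, the crown-root regulator, had 187 and 299 with BAP, 1868 and 1634 with IAA and 506 and 618 in control. The 3 groups did not overlap, and control lay between them: the gene was −1.19 from control with BAP, 1.61 from control with IAA, and −2.80 between the hormones (SE 0.20, limma adjusted p = 0.000237). WOX6 had 38.3 and 40.3 with BAP, 490.5 and 327 with IAA and 55.8 and 76.9 in control (−2.91, SE 0.22, limma adjusted p = 0.000296), so it too had BAP below control and IAA above. WOX10 was near the floor with BAP, at 12.5 and 1.07, against 59.4 and 66.1 with IAA. Its difference of −1.83 (SE 0.34) lost the call without either BAP array or either IAA array, with adjusted p of 0.055 to 0.14. QHB, a root-centre WOX gene, had 33.0 and 42.0 with BAP against 49.9 and 44.2 with IAA (−0.24, limma adjusted p = 0.719), and LBD6 differed by 0.11.

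A peptide precursor gene and 3 expansin genes were higher with BAP, while most members of their lists did not pass. PSK2 encodes a precursor of phytosulfokine, a small peptide known to promote cell growth, and had 944 and 1065 with BAP, 191 and 187 with IAA and 261 and 246 in control (2.31, SE 0.13, limma adjusted p = 6.09e-05). It was the one called of 3 precursor genes; PSK4 differed by 0.23. EXPB7, a beta-expansin that loosens cell walls, had 1816 and 2456 with BAP, 517 and 646 with IAA and 1099 and 954 in control (1.84, SE 0.17, limma adjusted p = 0.000882). EXPA8 had 419 and 428 with BAP, 201 and 171 with IAA and 278 and 294 in control (1.13, SE 0.13). In EXPB7 and EXPA8 the control lay between the hormones, while in EXPA2 both hormones lay above control: 1861 and 1907 with BAP, 1138 and 951 with IAA and 820 and 729 in control (0.85, SE 0.12). Of 21 expansin genes 3 were higher and none was lower, and the median was 0.14. The EXPA2 call was lost without BAP replicate 1 (adjusted p = 0.052) and without BAP replicate 2 (0.056).

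CIN1, a cell-wall invertase that splits sucrose outside the cell, had 3868 and 4181 with BAP, 1332 and 1308 with IAA and 1721 and 2034 in control (1.60, SE 0.11, limma adjusted p = 0.000175). Sugar carriers of the SWEET family went both ways. SWEET11 had 2261 and 2075 with BAP, 1368 and 1299 with IAA and 1322 and 1541 in control (0.69, SE 0.11), whereas SWEET14 had 157 and 133 with BAP, 302 and 334 with IAA and 231 and 216 in control (−1.06, SE 0.14). A second SWEET14 probe set gave −0.73 and did not pass (limma adjusted p = 0.271). The SWEET11 call was lost without BAP replicate 1, IAA replicate 1 or IAA replicate 2, with adjusted p of 0.065 to 0.077, and the SWEET14 call without IAA replicate 2 (0.0502). SWEET15, at 68.5 and 63.7 with BAP against 229 and 126 with IAA, differed by −1.18, and by −0.79 without IAA replicate 1 (adjusted p = 0.19). Its call was also lost without either control array and without either BAP array. The list of 14 sugar transporter genes thus held 1 higher and 2 lower, with a median near 0. No cyclin or cyclin-dependent kinase gene of 31 passed.

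Brassinosteroid genes also divided. CPD2, a cytochrome P450 of brassinosteroid synthesis, had 509.8 and 509 with BAP, 159 and 188 with IAA and 189 and 208 in control (1.48, SE 0.14, limma adjusted p = 0.00112). The synthesis gene DWARF had 660 and 672 with BAP, 416 and 431 with IAA and 551 and 535 in control (0.63, SE 0.11, limma adjusted p = 0.023), a call lost whichever array was left out. On the other side, CYP734A4, a P450 of the family that inactivates brassinosteroids, had 75.6 and 32.2 with BAP, 367 and 272 with IAA and 82.6 and 76.3 in control (−2.32, SE 0.28, limma adjusted p = 0.00381). BHLH172, of the basic helix-loop-helix family, had 160 and 211 with BAP, 1298 and 750 with IAA and 110.2 and 110.5 in control (−2.33, SE 0.24). For CPD2 the IAA arrays lay near control, and for CYP734A4 the BAP arrays did. In the list of 10 brassinosteroid genes 2 were higher and 1 was lower. The lower one was BHLH172, while CYP734A4 stood outside that list. Of 10 gibberellin genes 1 was higher, CPS1, whose enzyme opens gibberellin synthesis: 445 and 364 with BAP, 210 and 163 with IAA and 229 and 247 in control (1.06, SE 0.16). That call was lost without BAP replicate 1 and without IAA replicate 2.

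Members of the glutathione S-transferase and OPR lists were called lower with BAP, and none was called higher. Of 6 glutathione S-transferase genes, whose enzymes couple glutathione to small molecules, 3 were lower. GSTU1 had 299 and 356 with BAP, 1233 and 1431 with IAA and 219 and 336 in control (−1.97, SE 0.19, limma adjusted p = 0.00132). GSTU6 had 989 and 1347 with BAP, 3575 and 3329 with IAA and 971 and 1171 in control (−1.57, SE 0.15). In both genes the BAP and control arrays overlapped. Of 6 OPR genes, relatives of the enzyme that reduces oxophytodienoic acid on the way to jasmonate, 3 were lower: OPR1 (802 and 848 with BAP, 3257 and 3817 with IAA, difference −2.07), OPR5 (1063 and 1085 with BAP, 3070 and 3659 with IAA, difference −1.63) and OPR10 (899 and 1103 with BAP, 2504 and 2835 with IAA, difference −1.41). OPR10 lay above control, at 611.5 and 649.8, with both hormones. A second probe set of OPR5 gave −0.84 (limma adjusted p = 0.101). These genes can share probes or sequence, so a single member's value is uncertain.

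Glutaredoxin genes, small redox proteins of which the CC type binds TGA factors, were called in both directions, 1 higher and 2 lower of 18. GRXC10 had 381 and 295 with BAP, 86.2 and 109 with IAA and 206 and 178 in control (1.64, SE 0.18, limma adjusted p = 0.00217). GRXC3 had 69.0 and 70.04 with BAP, 286 and 217 with IAA and 79.9 and 65.1 in control (−1.63, SE 0.18), and GRXC7 had 378 and 324 with BAP, 938 and 926 with IAA and 533 and 567 in control (−1.37, SE 0.12). Control lay between the hormones in GRXC10 and GRXC7 and at the BAP level in GRXC3. TGAL6, a TGA-like bZIP factor gene, had another order, with 252 and 247 with BAP against 992 and 998 with IAA and 728 and 805 in control (−1.93, SE 0.11, limma adjusted p = 9.39e-05), so control lay near IAA and the BAP arrays stood apart. CYP87A3, a cytochrome P450 gene, had 25.4 and 27.2 with BAP, 151 and 134 with IAA and 26.0 and 32.7 in control (−1.90, SE 0.19), and SAT1, a serine acetyltransferase gene of cysteine synthesis that was named after its values were seen, had 558 and 520 with BAP, 1287 and 1361 with IAA and 549.5 and 626 in control (−1.27, SE 0.12).

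Among transcription factors of other families, 3 of 7 NAC genes were lower with BAP. NAC067 had 792 and 782 with BAP, 1941 and 2061 with IAA and 611 and 631 in control (−1.33, SE 0.10, limma adjusted p = 0.000328), with both hormones above control. NAC071 had 929 and 1099 with BAP and 2296 and 1796 with IAA, and its second probe set was called as well (−0.996 and −1.40); the brighter lost its call without BAP replicate 1 and the dimmer without any 1 of the BAP and IAA arrays. Another NAC071 probe set gave −0.79 and did not pass (limma adjusted p = 0.0853). HOX1 was the 1 called of 31 homeobox genes outside the WOX list (626 and 495 with BAP, 1144 and 968 with IAA, difference −0.90). No gene passed among 6 WRKY, 7 ERF and DREB, or 6 clock genes. JAZ13, a repressor of jasmonate signalling, was the 1 called of 15 TIFY genes, at 161 and 134 with BAP, 69.5 and 61.4 with IAA and 84.4 and 68.1 in control (1.00, SE 0.18, limma adjusted p = 0.0235). The HOX1 and JAZ13 calls were lost without any 1 of the BAP and IAA arrays.

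Of 7 silicon and aluminium transport genes 1 passed, and 3 are given here in which both hormones lay below control. Lsi2, the silicon efflux carrier of roots, had 359 and 244 with BAP, 529 and 685 with IAA and 1079 and 883 in control. BAP was below IAA and IAA below control in every array, with a difference between the hormones of −0.98 (SE 0.20, limma adjusted p = 0.0395). That call was lost without BAP replicate 2 (adjusted p = 0.158), IAA replicate 1 (0.081), IAA replicate 2 (0.187) or control replicate 2 (0.0502). The silicon channel gene NIP2-1 had 1868 and 1911 with BAP, 2487 and 2698 with IAA and 3744 and 3309 in control (−0.45, limma adjusted p = 0.0517). Nrat1, an aluminium carrier gene, had 74.7 and 74.3 with BAP, 119 and 131 with IAA and 235 and 239 in control (−0.63, limma adjusted p = 0.0663). The 3 genes showed the same order of groups. NIP2-2, another member of the list, had 793 and 769.6 with BAP, 1051 and 880.3 with IAA and 896 and 919 in control, so control lay within the IAA range (−0.29, limma adjusted p = 0.329). PHT1-3, a phosphate transporter family gene, was dim: 37.5 and 45.5 with BAP, 4.58 and 11.5 with IAA and 27.4 and 19.4 in control. Its difference of 1.27 (SE 0.25) lost the call whichever array was left out, and its other probe set gave −0.21.

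Several hormone and stress lists gave no call. None of 3 ethylene synthesis genes passed, although ACS1 had 18.9 and 30.4 with BAP and 48.7 and 33.5 with IAA, against 1.85 and 1.22 in control. None of 7 abscisic acid and dehydrin genes passed, and their median was 0.71. RAB16D had 103 and 246 with BAP, 8.78 and 49.5 with IAA and 15.4 and 69.3 in control (2.13, limma adjusted p = 0.114), and RAB16C had 138 and 99.8 with BAP against 53.6 and 60.6 with IAA (0.87, limma adjusted p = 0.0587). The BAP arrays lay above the IAA arrays in both genes, but the arrays of a group differed widely in RAB16D. By their brightest probe sets, none of 40 heat shock genes, 28 iron genes, 24 aquaporin genes or 38 nitrate, ammonium, phosphate and potassium transporter genes passed, with list medians of 0.09 for heat shock genes and −0.16 for the nutrient carriers. That count holds neither the PHT1-3 call given above, which came from its dimmer probe set, nor the call of PHO1-2. PHO1-2 was called lower with BAP and lost the call whichever array was left out.

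**Figure D3:**
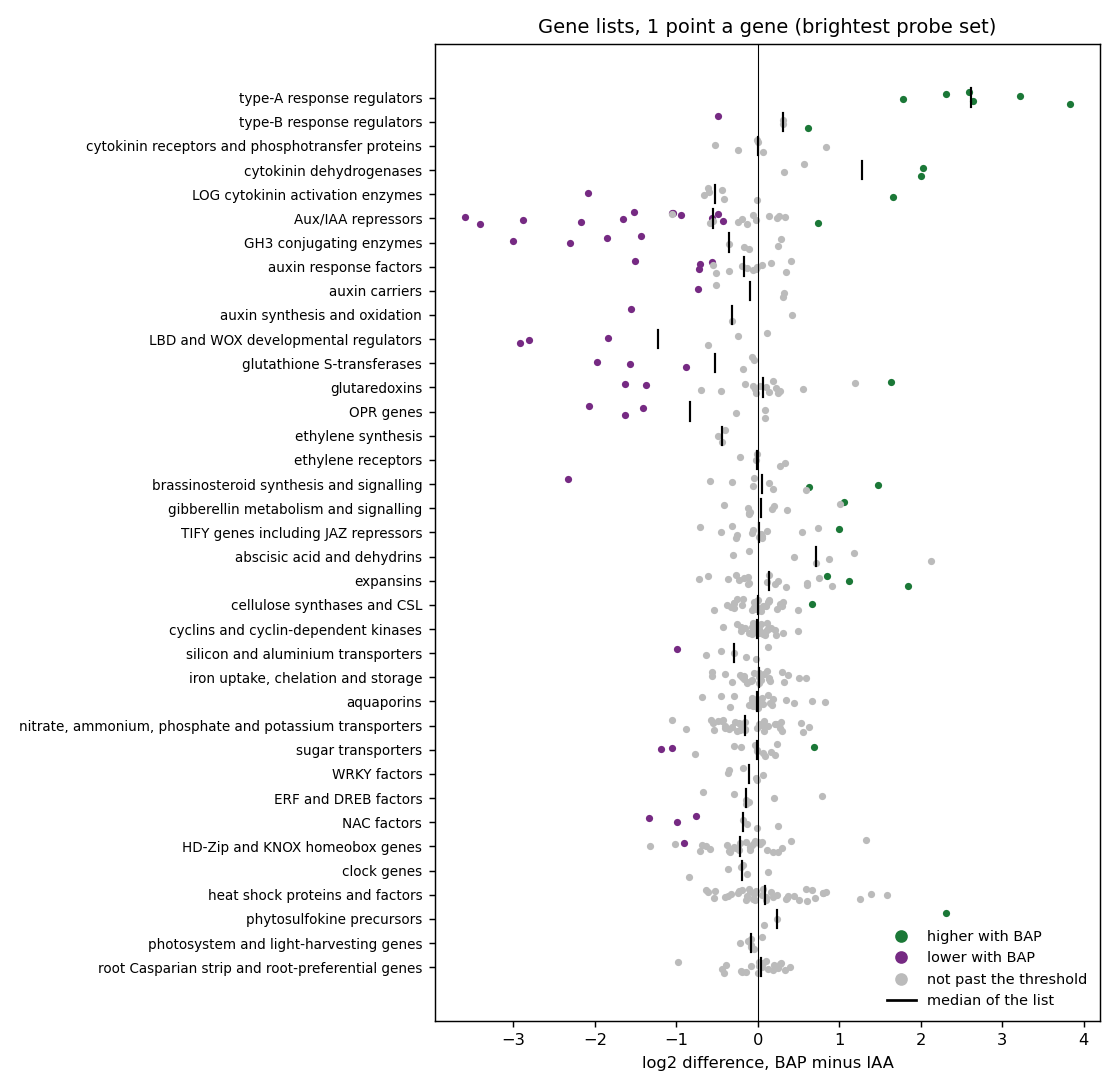
The log2 difference, BAP minus IAA (horizontal axis), of each measured gene in the lists with 3 or more measured genes, with 1 point a gene. Green points were higher with BAP, purple points lower, grey points did not pass, and the black tick is the list's median. All 6 type-A response regulators lie right of 1.5, 12 of 25 Aux/IAA repressors are purple, and LOG, glutaredoxin, sugar transporter and brassinosteroid lists hold points of both colours.

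The control arrays placed the levels differently in each direction. Among the 388 probe sets lower with BAP, the control mean lay nearer the BAP mean in 304 (78.4%). Among the 381 higher with BAP, the control mean lay nearer the IAA mean in 201 (52.8%) and nearer the BAP mean in 180. Over all tested probe sets control lay nearer BAP in 54.4% and nearer IAA in 45.6%. On a scale with the IAA mean at 0 and the BAP mean at 1, control lay between 0.25 and 0.75 in 196 of the higher probe sets (51.4%) and in 129 of the lower (33.2%). RR9, EXPB7, EXPA8 and GRXC10 are higher genes of that middle class, and WOX11 and GRXC7 are lower ones. Control lay beyond the BAP mean in 94 lower probe sets, where both hormone means lay above control, as in GH3-8, NAC067 and OPR10, and beyond the IAA mean in 11, where both lay below control, as in Lsi2. These counts are a description, since the control arrays entered the fit and share the run day of the IAA arrays.

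**Figure D4:**
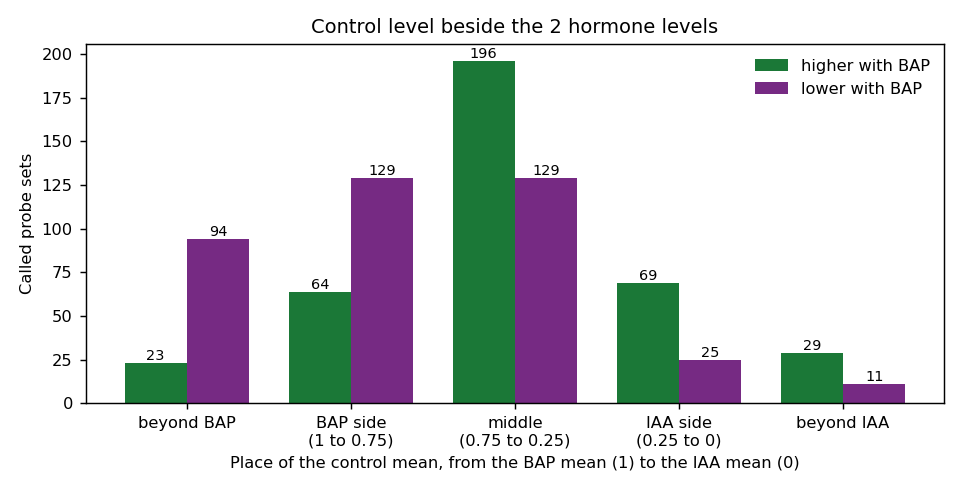
Number of called probe sets (vertical axis) by the place of the control mean, from beyond the BAP mean at the left to beyond the IAA mean at the right, in green for the 381 probe sets higher with BAP and in purple for the 388 lower. The highest green bar, 196, is the middle class, and the purple bars at the BAP side and in the middle are both 129, with 94 beyond the BAP mean.

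Several of the largest differences belong to features that the annotation used here does not name. The largest difference of all was that of a probe set with no gene in the annotation, with 962 and 1639 in the BAP arrays, 19.0 and 2.15 in the IAA arrays and 0.85 and 8.13 in the control arrays (5.66, SE 0.35, limma adjusted p = 0.000114). Both BAP arrays lay far above the other 4. LOC4339041 gave the largest difference in the other direction, with 63.4 and 48.3 with BAP, 2018 and 1547 with IAA and 52.0 and 70.5 in control (−4.64). LOC4341925 had 583 and 661 with BAP, 36.1 and 83.5 with IAA and 133 and 201 in control (3.15), and LOC4339516 had 1766 and 1714 with BAP, 215 and 261 with IAA and 448 and 449 in control (2.79). Both LOC4341925 and LOC4339516 showed the order of RR9, with control between the hormones.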

How the data were processed

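RNA of whole seedlings was hybridised to Affymetrix rice arrays, 1 array a sample. The authors deposited 1 linear intensity per probe set and array; the background correction and summary method are not given in the sources used here. Run day and fluidics module come from the scanner software's experiment files, per the file headers. The table held 57381 probe sets, 187 of them array controls, which were dropped. The deposited intensity was put on the log2(intensity + 16) scale and quantile normalized. Target probe sets dimmer than the 40th percentile of the mean log2 value, 4.70 or an intensity of 9.94, were not tested. limma 3.58.1 (R 4.3.3) was fitted over all 6 arrays with eBayes and an intensity trend, and p-values were Benjamini-Hochberg adjusted over 34316 probe sets. Gene names came from the platform annotation by way of RefSeq (japonica assembly ASM3414082v1): 22436 had 1 gene, 95 had several, and 2458 of 17905 genes had a symbol or synonym. The brightest probe set stands for a gene in a list.

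Genes named are the 15 with the largest difference each way among called, non-overlapping probe sets with a symbol, and up to 4 members of each list with the smallest p; others were named after their values were seen. The arrays compared, the lists and their members were chosen with earlier results of these data known. Replicate numbers did not pair the arrays: same-numbered arrays correlated at −0.06 between BAP and IAA. Alternatives were the scaling, the offset, the filter, the trend, the arrays in the fit, a plain test, a replicate block and leaving out each array. Promoter motifs were not analysed here.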

Additional observations from a re-analysis of the deposited data

How the results depend on the processing

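The 769 probe sets called (381 higher and 388 lower with BAP) became 234 (107 and 127) with no filter on dim probe sets and 223 (97 and 126) with a spread that does not follow intensity. Without rescaling 625 were higher, and 241 were with median centring of each array. limma's plain two-group test, with no sharing of spread between probe sets, called 0 (0 higher, 0 lower) after adjustment and 2609 at an unadjusted p of 0.05. Leaving out 1 array gave 310 to 591 calls, 145 to 289 higher and 153 to 302 lower. In the next shares the place of the control mean was always that of the main processing with all arrays. Only the set of called probe sets changed, so the placement itself was not tested against these settings. The share of higher calls with control nearer IAA was 68.2% with no filter and 66.0% with that spread. It was 59.2% for calls from the BAP and IAA arrays only and 50.0% to 69.7% for calls made without 1 array. The share of lower calls with control nearer BAP was 87.4%, 84.9% and 82.6% in the same settings. For calls made without 1 array it was 79.7% to 85.0%. A replicate block called 756 over all arrays and 777 over the BAP and IAA arrays; the numbers do not pair the arrays. Of 107 called named genes none reversed under any of 17 settings, 43 kept the call in the 16 beside the plain test, and 45 kept it with each array left out. All 107 were taken from probe sets whose BAP and IAA arrays did not overlap, so leaving out 1 array could hardly reverse them. The other settings used the same arrays, so the lack of reversals is no separate support. The number of arrays, 2 a group, limits what could be called.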
